A study of Mus musculus with 2 samples.

Results

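Blood clotting, clot removal and the temporary matrix that fills an injured tissue were followed through 10 genes in the cells of mouse liver metastases. The genes were F3, F7, F10, F13a1, Plau, Plaur, Thbs1, Fn1, Vcan and Pf4, chosen by symbol from the 56941 features measured, and each symbol marked 1 feature. They were chosen with earlier results of these data known, so their counts beside all genes are a description and no test. Transcripts of single CD45+ cells were sequenced from liver lesions that grew for 2 weeks after MC38-LM3b cells, a liver-metastatic derivative of the mouse colorectal cancer line MC38, had been injected into the spleen of C57BL/6 mice aged 6 to 8 weeks. In the Ctrl group the tumor cells carried a scrambled hairpin (shScramble), and in the KD group a hairpin against SLAMF3 (shSLAMF3), a receptor encoded by Ly9. The hairpin was in the injected cells and not in the host cells that make up most of the data. Each group had 1 library that pooled the lesions of 3 mice, so no test could be made and no p-value is given. The bracketed ranges are 95% intervals that reflect counting error and not the spread between mice.

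Sequencing gave 67207234 UMIs (unique molecular identifiers, each standing for 1 captured RNA molecule) over 10416 cell barcodes for Ctrl and 64444715 UMIs over 10943 barcodes for KD. The filters kept 9814 Ctrl and 10185 KD cells, with medians of 5412 and 4989 UMIs, and 24 of their barcodes occurred in both libraries. Ly9 had 12 UMIs in 161 Ctrl tumor-like or fibroblast-like cells and 7 UMIs in 95 KD ones, a log2 ratio of -0.14 [-1.73, 1.32] of KD over Ctrl, so that a knockdown was not detectable at this depth in the few tumor-like cells that passed the CD45 selection. Cells were named from marker genes, and each name means cells that resemble the named type. Macrophages, with monocytes among them, numbered 4099 in Ctrl and 3016 in KD, granulocytes 776 and 2220, endothelial-like cells 150 and 646, and T cells, used below as a class that should lack most of these transcripts, 3215 and 1616.

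Coagulation begins when tissue factor, the product of F3, binds factor VII and the pair activates factor X, which leads to thrombin and to fibrin. Factor XIII, whose A subunit is encoded by F13a1, crosslinks fibrin and fibronectin. Urokinase (Plau) and its receptor (Plaur) bring plasmin to the cell surface and so open fibrin again. Fibronectin (Fn1), thrombospondin-1 (Thbs1) and the proteoglycan versican (Vcan) build the provisional matrix on which cells migrate, and Pf4 encodes platelet factor 4, a chemokine best known from platelet granules that some macrophages also make. In the liver, hepatocytes secrete most circulating factor VII and factor X, and monocytes and macrophages are known to make tissue factor when stimulated.

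The promoters of F3, F13a1 and Pf4 are shown because F3 and the other 2 genes moved in opposite directions in macrophages. RefSeq promoter sequences (GRCm38.p6, which differs from the GRCm39 build of the submitters' processing notes) were matched for 7 of the 10 genes. The 250 bases before the start site are given 5' to 3' on the gene's strand, at chr3:121723287-121723536 (plus strand) for F3, chr13:37050245-37050494 (minus strand) for F13a1 and chr5:90772185-90772434 (plus strand) for Pf4. Capitals mark matches, on either strand, to the AP-1 motif TGANTCA, the PU.1 motif GAGGAA, the GC box GGGCGG or the GATA motif AGATAA.
F3: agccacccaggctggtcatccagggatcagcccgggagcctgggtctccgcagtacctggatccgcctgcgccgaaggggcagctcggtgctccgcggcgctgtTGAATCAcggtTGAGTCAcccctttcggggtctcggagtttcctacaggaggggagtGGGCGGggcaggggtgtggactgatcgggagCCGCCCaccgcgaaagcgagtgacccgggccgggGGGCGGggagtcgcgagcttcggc
F13a1: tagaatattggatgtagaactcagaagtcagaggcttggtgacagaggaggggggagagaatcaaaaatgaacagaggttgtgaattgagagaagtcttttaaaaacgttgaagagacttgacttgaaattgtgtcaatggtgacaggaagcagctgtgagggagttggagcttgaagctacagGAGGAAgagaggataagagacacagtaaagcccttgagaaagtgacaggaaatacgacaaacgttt
Pf4: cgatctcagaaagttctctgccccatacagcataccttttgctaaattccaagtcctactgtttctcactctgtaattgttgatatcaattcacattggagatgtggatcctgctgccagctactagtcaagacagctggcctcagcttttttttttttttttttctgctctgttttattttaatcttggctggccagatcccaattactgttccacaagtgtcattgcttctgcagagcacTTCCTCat
The F3 window held 2 AP-1 matches, at 140 to 146 and 129 to 135 bases before the start, and 3 GC box matches. The F13a1 and Pf4 windows each held 1 PU.1 match, at 61 to 66 and at 3 to 8 bases before the start, and none of the other motifs. RefSeq lists a second start for F13a1, whose window held 0 matches and was 54.4% G and C. Among 32851 promoter windows of this length, 6.75% held the AP-1 motif, 23.3% PU.1, 32.7% the GC box and 9.99% GATA. The F3 promoter was 70.0% G and C, against 42.8% for the F13a1 window shown and 41.2% for Pf4. The windows of Vcan and F7, also at least 2-fold higher in macrophages, were 62.4% and 56.4% G and C. Vcan held 2 GC box matches and F7 held 1 PU.1 match. Plaur, higher by less than 2-fold, held AP-1, PU.1 and GC box matches. The contrast between the windows shown thus did not extend to every higher gene. In the RefSeq gene order F7 and F10 are neighbours, and Pf4 lies between the chemokine genes Ppbp and Cxcl3. These matches describe letters in the window and say nothing of binding.

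The 10 genes were mainly myeloid in both libraries. Macrophages and monocytes held 88.2% of the F10 UMIs of the Ctrl library and 84.3% of those of the KD library, 91.1% and 91.2% of the Pf4 UMIs, 84.9% and 91.5% of the Vcan UMIs, and 83.6% and 82.8% of the Thbs1 UMIs. F3 and Plaur were the members with the largest shares of UMIs in granulocytes. Granulocytes held 34.3% of the F3 UMIs in Ctrl and 41.9% in KD, and 17.9% and 37.3% of the Plaur UMIs. In T cells every member lay between 0.159 and 23.4 CPM (UMIs scaled to a common total of 1e+06 per class), in Ctrl at most 11.6 CPM. In T cells of KD, Thbs1, Plaur, Fn1, Vcan, Pf4 and F7 were higher than in T cells of Ctrl. Thbs1 had 23.4 against 10.9 CPM and Fn1 11.01 against 3.59 CPM, while F7 rested on 4 Ctrl and 10 KD UMIs. Plau was lower in KD T cells, at 5.46 against 11.6 CPM. The summed level of 12 granulocyte markers in T cells was 1098 CPM in KD and 106 CPM in Ctrl, and the part of free RNA in low levels of the members was not tested.

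**Figure D1:**
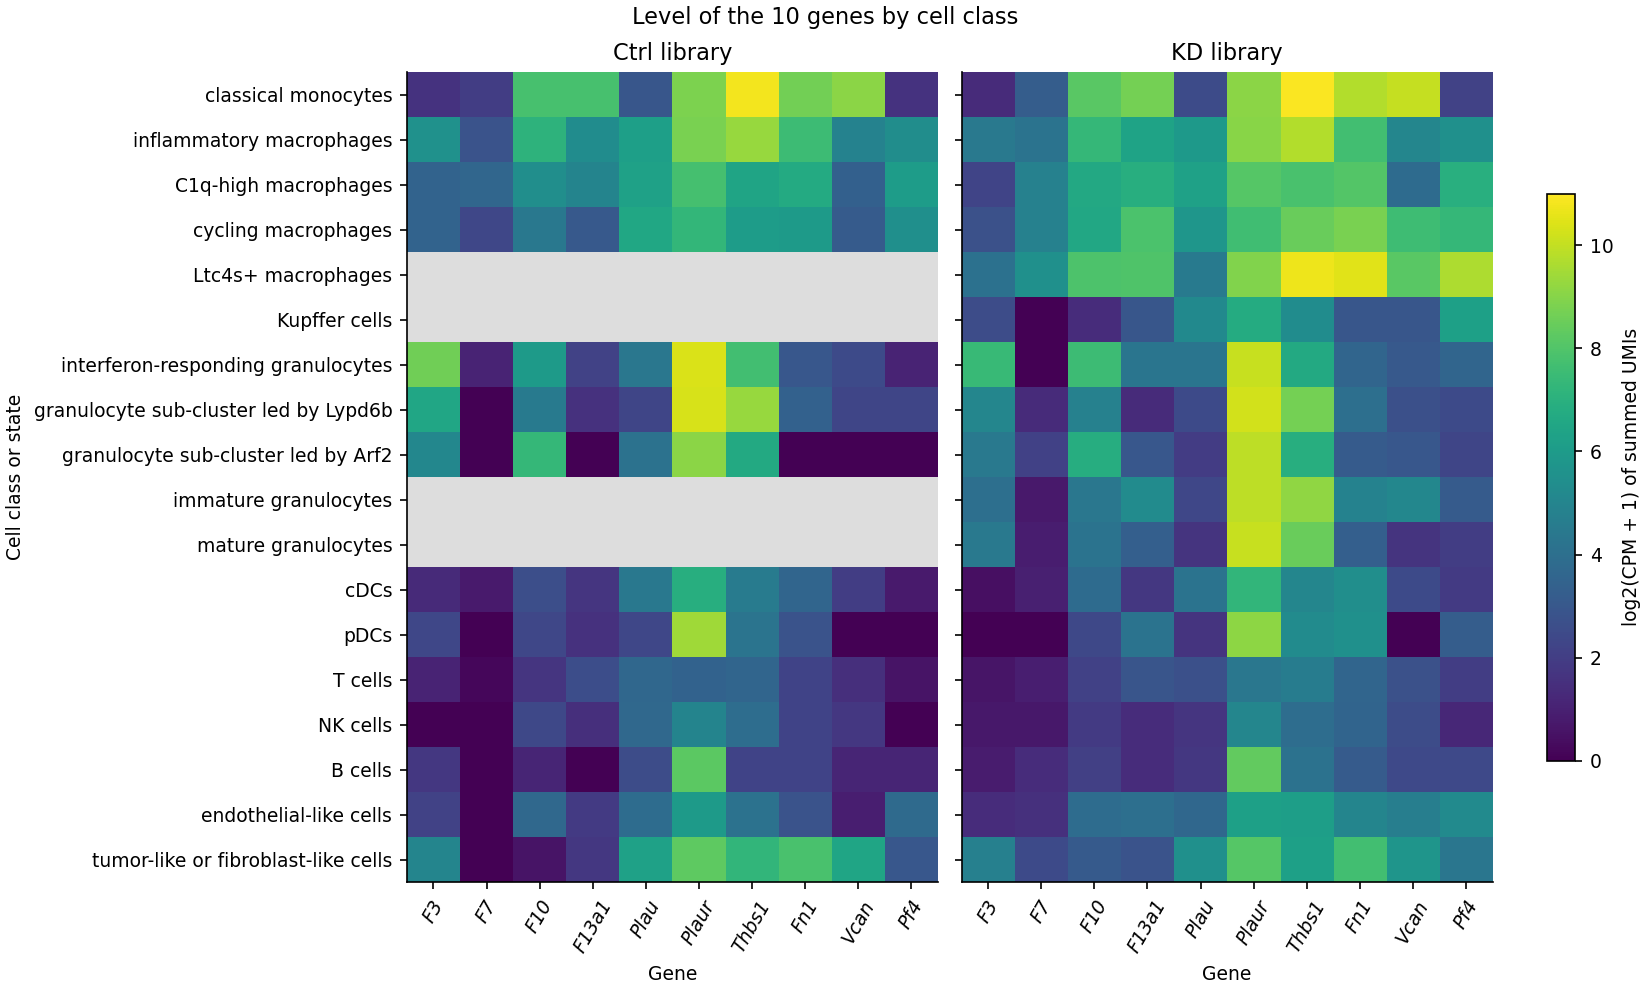
Level of each of the 10 genes (columns, x axis) by cell class or state (y axis) in the Ctrl library (left) and the KD library (right), with color for log2(CPM + 1) of summed UMIs and grey for classes of under 50 cells, where no level is drawn. Classical monocytes carried Thbs1, Fn1, Vcan, F13a1 and F10, granulocyte states carried Plaur, and F3 was highest in interferon-responding granulocytes, at 388 CPM in Ctrl and 172 CPM in KD.

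In macrophages, 5 of the 10 genes were at least 2-fold higher in KD than in Ctrl (F13a1, F7, Fn1, Vcan and Pf4), where 2.39% of the 13344 genes with at least 50 UMIs were. F3 alone was at least 2-fold lower, where 2.83% of genes were. The median log2 ratio of the 10 genes was 1.38, against -0.03 over all genes tested. In the summed RNA of macrophages F3 was thus lower in KD, and F7 and F10 were higher, F10 by less than 2-fold. F13a1, Fn1, Vcan and Pf4 were also on the higher side, and Plau and Plaur differed by less than 2-fold.

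F3 had 626 UMIs (23.9 CPM) in Ctrl macrophages and 195 UMIs (8.22 CPM) in KD macrophages, a log2 ratio of -1.54 [-1.78, -1.30]. After each cell was thinned to 1500 UMIs, 2.89% of Ctrl and 0.965% of KD macrophages had an F3 UMI, and T cells had 1.12 and 0.537 CPM. F7, the protease partner of tissue factor, had 178 UMIs (6.79 CPM) in Ctrl and 649 UMIs (27.4 CPM) in KD, a log2 ratio of 2.01 [1.77, 2.26]. F10 stood at 92.2 CPM in Ctrl against 163 CPM in KD, a log2 ratio of 0.82 [0.75, 0.90]. The 10 hepatocyte markers summed to 204 UMIs (7.78 CPM) in Ctrl and 96 UMIs (4.05 CPM) in KD macrophages, with 0 and 2 of them at 0, and the part of hepatocyte RNA in the F7 and F10 levels was not tested.

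F13a1 had 1269 UMIs (48.4 CPM) in Ctrl macrophages and 4631 UMIs (195 CPM) in KD macrophages, a log2 ratio of 2.01 [1.92, 2.10]. Thinned cells with an F13a1 UMI were 5.96% and 18.0%, against 0.462% and 0.638% of T cells. Plau was at 77.9 CPM in Ctrl against 51.9 CPM in KD, a log2 ratio of -0.59 [-0.69, -0.48]. Plaur was at 303 and 375 CPM, a log2 ratio of 0.31 [0.27, 0.35], so that enzyme and receptor lay on different sides of 0. The share of thinned macrophages with a Plau UMI was 9.27% and 5.72%, and with a Plaur UMI 32.3% and 37.5%.

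Fn1 had 161 CPM in Ctrl macrophages and 603 CPM in KD macrophages, a log2 ratio of 1.90 [1.85, 1.95]. Vcan had 67.3 and 237 CPM, a log2 ratio of 1.81 [1.74, 1.89], and Thbs1 446 and 858 CPM, a log2 ratio of 0.94 [0.91, 0.98]. The 3 matrix genes were all higher in KD, Thbs1 by the least. Pf4 had 1073 UMIs (40.9 CPM) in Ctrl and 5806 UMIs (245 CPM) in KD, a log2 ratio of 2.58 [2.49, 2.68]. The 10 platelet markers summed to 124 UMIs (4.73 CPM) in Ctrl and 219 UMIs (9.23 CPM) in KD macrophages, with 3 and 4 of them at 0. The part of platelets in the Pf4 level was not tested. Thinned macrophages had UMIs of 1.11 ± 1.16 (SD over 3809 cells) of the 10 genes in Ctrl and 1.86 ± 1.49 (SD over 2902 cells) in KD, and 12.2% and 30.9% of them held 3 or more. In T cells the same mean was 0.0515 and 0.0804 genes.

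**Figure D2:**
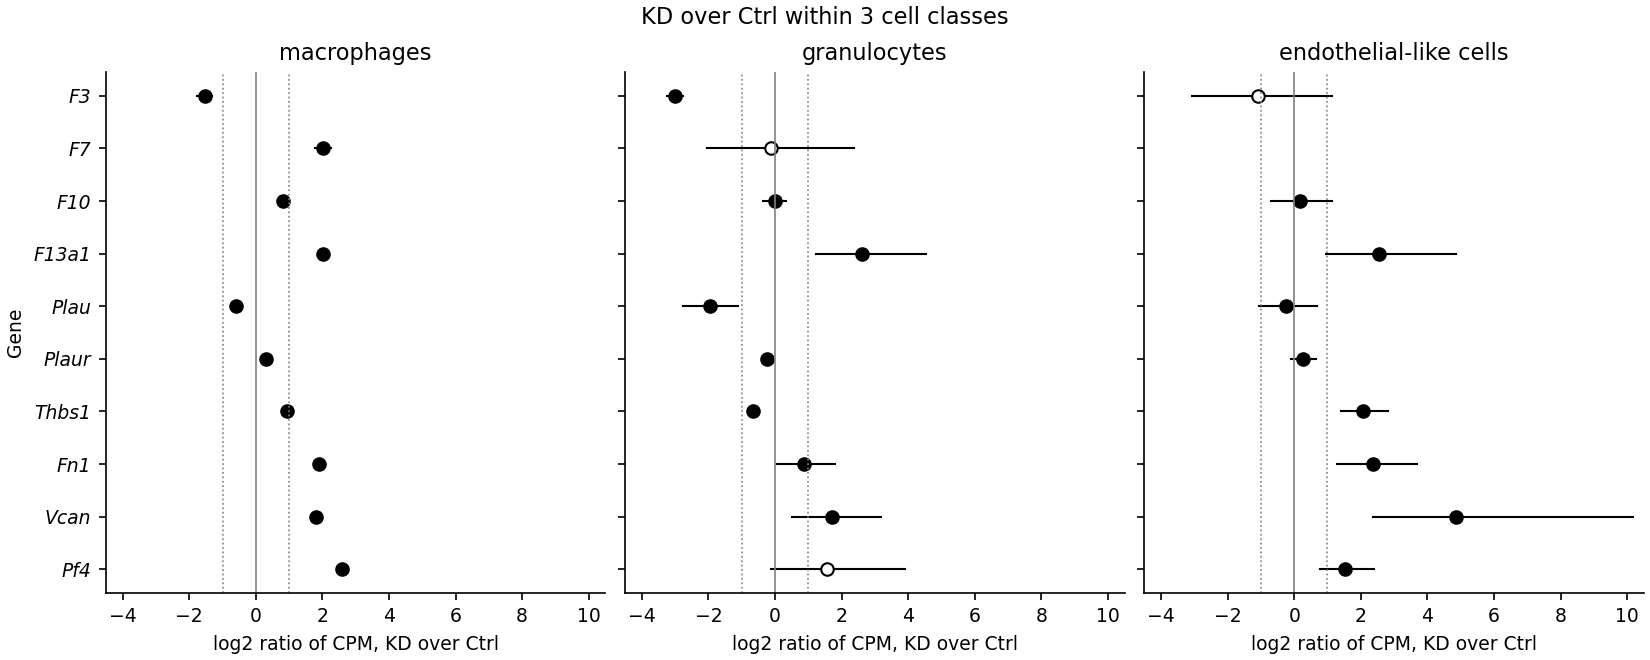
Log2 ratio of CPM, KD over Ctrl (x axis), of the 10 genes (y axis) in macrophages, granulocytes and endothelial-like cells, with 95% intervals for counting error. Dotted lines mark 2-fold and open circles genes with under 50 UMIs over both libraries. F3 lay at -1.54 in macrophages and -3.00 in granulocytes, and Thbs1 at 0.94 in macrophages but -0.65 in granulocytes.

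The makeup of the macrophages differed between the libraries, and the ratios were therefore followed by state. Ltc4s+ macrophages, named for leukotriene C4 synthase, numbered 16 in Ctrl and 585 in KD, so that this group may be a property of the KD library rather than a cell type. Among classes of at least 50 cells it was the highest in KD for Fn1, with 1455 CPM, for Pf4, with 805 CPM, and for F7, with 45.4 CPM. The F7 interval there overlapped that of the next class and the others did not. It also had 1693 CPM of Thbs1, 288 CPM of Vcan, 253 CPM of F13a1 and 241 CPM of F10, and 63.7% of its thinned cells held 3 or more of the genes. The 16 Ctrl cells had 3434 CPM of Fn1 (390 UMIs), 2483 CPM of Thbs1, 379 CPM of F10 and 282 CPM of F13a1. They had 176 CPM of Vcan (20 UMIs), 114 CPM of Pf4 (13 UMIs) and 35.2 CPM of F7 (4 UMIs). In this group Pf4, Plaur and Vcan were higher in KD, with log2 ratios of 2.81 [2.04, 3.73], 0.85 [0.33, 1.42] and 0.71 [0.08, 1.43]. Fn1 was lower, at -1.24 [-1.39, -1.09], as were F10 and Thbs1. F3 was also lower, with 282 CPM (32 UMIs) in Ctrl and 16.4 CPM in KD, a log2 ratio of -4.11 [-4.71, -3.47]. The intervals of F13a1, F7 and Plau spanned 0. These ratios rest on 16 Ctrl cells, under the 50 used elsewhere to compare states, and the intervals do not cover the spread between cells. With other settings the group took other names. Under the stricter cell filter a cluster of 57 Ctrl and 594 KD cells, with Ccl24, Pf4 and Fn1 among its leading genes, was named Kupffer cells, and with the 10 genes kept among the variable genes a cluster of 19 and 536 cells led by Ltc4s was named inflammatory macrophages. The 10 platelet markers summed to 15.5 CPM there, with 5 of them at 0. Fn1 and Pf4 were among the leading genes of these cells, so their levels describe the group and are no test of it.

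Without the Ltc4s+ group, the macrophage log2 ratio was 1.29 for Pf4, 1.37 for Fn1, 0.55 for Thbs1, 1.77 for F7, 1.74 for Vcan and 1.93 for F13a1, and -1.90 for F3. The 5 macrophage states that had at least 50 cells in both libraries included an unnamed sub-cluster led by AY036118. It had 979 Ctrl and 338 KD cells, with medians of 2617 and 2200 UMIs. With these 5 states weighted by their shares of the Ctrl UMIs (Ctrl proportions), the log2 ratios were 0.97 for Pf4, 1.14 for Fn1 and 1.24 for Vcan. They were 1.68 for F7, 1.75 for F13a1 and -1.02 for F3. Of the genes that were at least 2-fold higher, only Pf4 then lay under 2-fold. Within those 5 states the interval lay above 0 in all 5 for F13a1, F10, F7, Thbs1, Fn1 and Plaur, in 4 for Vcan and in 3 for Pf4. It lay below 0 in 2 for F3 and in 2 for Plau.

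Classical monocytes (437 in Ctrl and 474 in KD) were, among classes of at least 50 cells, the highest for F13a1, Thbs1, Vcan and F10 in both libraries, and for Fn1 in Ctrl. The interval overlapped that of the next class for F10 in Ctrl alone, where an Arf2-led granulocyte sub-cluster had 159 CPM. They had 221 CPM of F13a1 in Ctrl and 413 CPM in KD, a log2 ratio of 0.90 [0.75, 1.05]. Vcan stood at 542 and 1053 CPM, a log2 ratio of 0.96 [0.87, 1.05], and Fn1 at 406 and 852 CPM, a log2 ratio of 1.07 [0.96, 1.18]. Thbs1 differed little, at 1765 and 1969 CPM, a log2 ratio of 0.16 [0.10, 0.21], and F10 had 224 and 294 CPM. Vcan leads this class and its level there is a description. Of the 6 members with at least 50 UMIs, Fn1 alone was at least 2-fold higher, where 1.59% of 7417 genes were, and none was 2-fold lower, where 2.32% were. F3 had 5 UMIs in each library and Pf4 5 and 11, so that monocytes held little of either.

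C1q-high macrophages (855 in Ctrl and 1088 in KD), the state rich in complement C1q, had 5 of the 10 genes at least 2-fold higher, namely F13a1, F10, F7, Thbs1 and Fn1, where 1.73% of 10404 genes were, and F3 lower, where 1.28% were. F13a1 went from 29.9 CPM in Ctrl to 120 CPM in KD, a log2 ratio of 2.00 [1.78, 2.23]. Thbs1 had 84.9 and 230 CPM, a log2 ratio of 1.44 [1.30, 1.57], and F10 had 41.7 and 99.2 CPM, a log2 ratio of 1.25 [1.05, 1.45]. Pf4 stood at 66.3 and 120 CPM and Plau at 78.3 and 78.1 CPM, the latter with a log2 ratio of 0.00 [-0.17, 0.16]. The median over the 10 genes was 1.05, against 0.04 over all genes tested in this state. The state was not of 1 kind in both libraries. At resolution 1.0 one C1q-high sub-cluster, led by Mmp12 and Mgl2, had 68 Ctrl and 568 KD cells, another, led by Ccl8, had 531 Ctrl and 70 KD cells, and one more had 327 and 116, so the ratios within the state compare different mixtures of cells.

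Inflammatory macrophages (1242 in Ctrl and 276 in KD), marked by Il1b and Cxcl chemokines, had 2 genes past 2-fold on the higher side. They were F7 and F13a1, where 1.02% of 9005 genes were called, and F3 was lower, where 1.89% were. F3 had 399 UMIs (45.6 CPM) in Ctrl and 48 UMIs (21.0 CPM) in KD, a log2 ratio of -1.12 [-1.59, -0.69]. Fn1 stood at 183 and 205 CPM, a log2 ratio of 0.16 [0.01, 0.31], and Pf4 at 41.1 and 45.0 CPM, a log2 ratio of 0.13 [-0.20, 0.45]. The median over the 10 genes was 0.19, against 0.02. These calls moved with the clustering and scaling. F7 was at 0.45 under the stricter cell filter, and F13a1 was under 2-fold there (0.81), without likely doublets (0.88) and with TMM scaling (0.96). At resolution 1.0 the state held 363 Ctrl and 314 KD cells, with log2 ratios of 1.54 for Fn1 and 4.06 for Pf4.

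Cycling macrophages (481 in Ctrl and 131 in KD) had larger ratios for F13a1, Vcan and Fn1. The share of all genes past 2-fold was not counted in this state. Its ratios were not followed under the other settings. F13a1 had 36 UMIs (7.40 CPM) in Ctrl and 419 UMIs (239 CPM) in KD, a log2 ratio of 5.01 [4.52, 5.55]. Vcan had 38 UMIs (7.81 CPM) and 340 UMIs (194 CPM), a log2 ratio of 4.63 [4.15, 5.16], and Fn1 63.1 and 445 CPM, a log2 ratio of 2.82 [2.63, 3.01]. In Ctrl T cells F13a1 was at 5.10 CPM and Vcan at 1.79 CPM, and the intervals overlapped those of Ctrl cycling macrophages for F13a1 but not for Vcan. The 12 granulocyte markers summed to 258 CPM in Ctrl cycling macrophages, with 1 at 0, and to 4475 CPM in KD ones, with none at 0, and their part in these differences was not tested. These clusters were named by cell cycle genes, and whether the same kinds of macrophages cycled in both libraries was not tested.

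**Figure D3:**
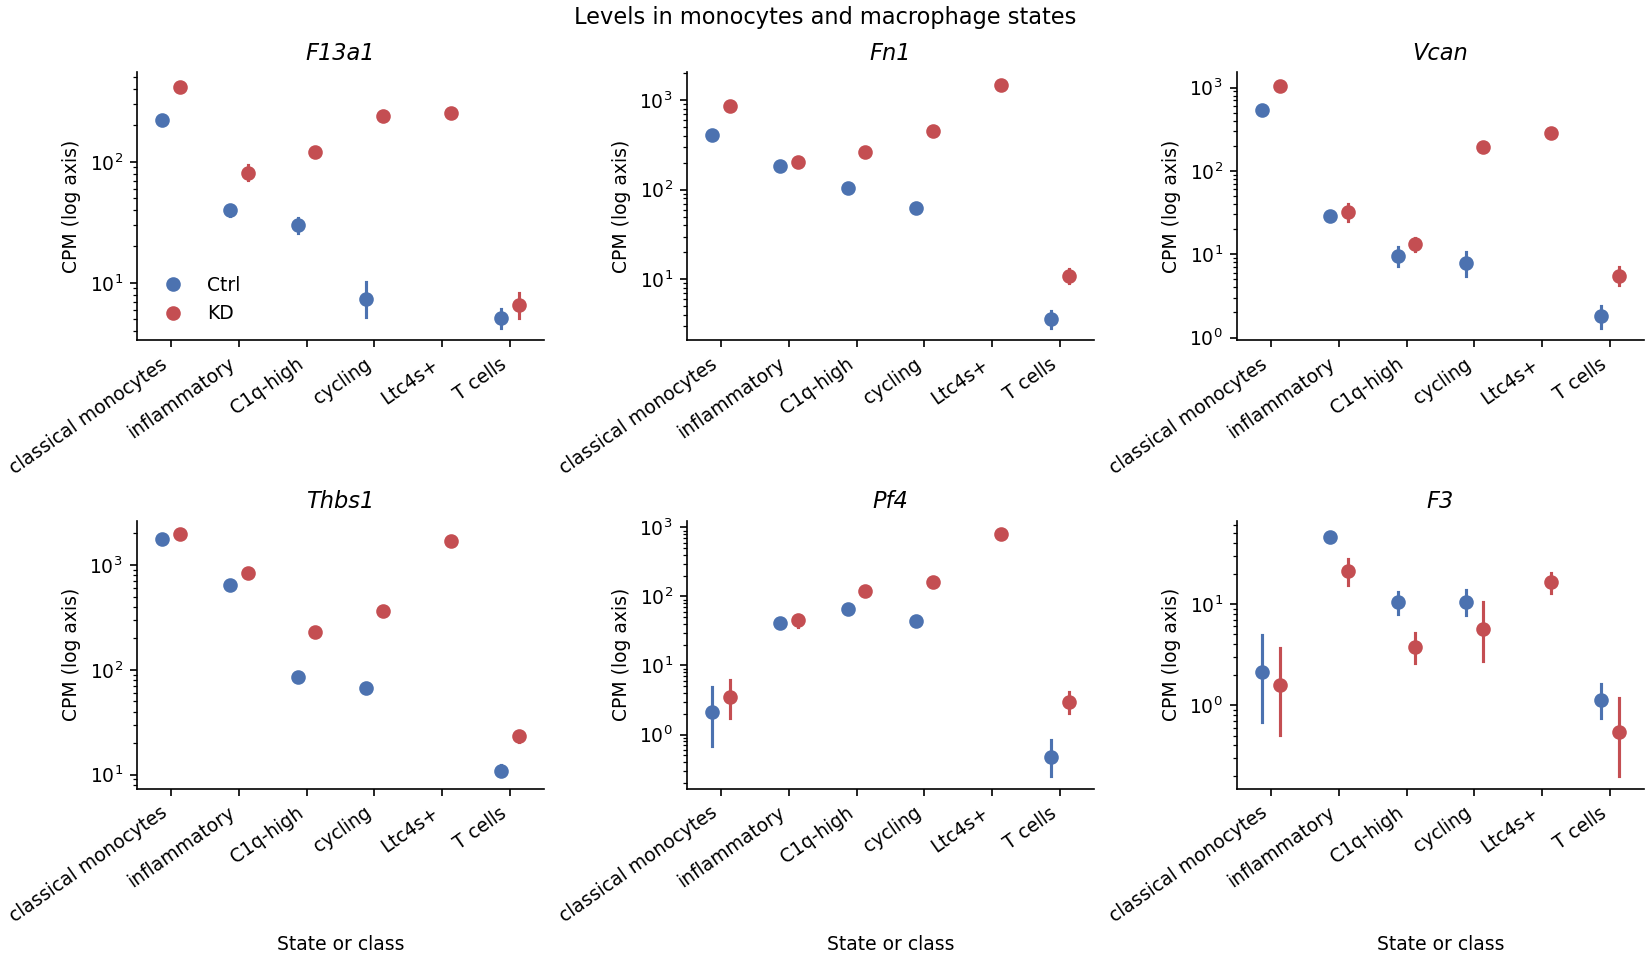
CPM (y axis, logarithmic) of 6 genes in classical monocytes, 4 macrophage states and T cells (x axis) in Ctrl (blue) and KD (red), with 95% intervals for counting error; Ltc4s+ cells are drawn for KD only, as Ctrl had 16. F13a1 was higher in KD in each state compared, Pf4 reached 805 CPM in Ltc4s+ cells, and F3 was lower in KD in inflammatory and C1q-high macrophages.

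In granulocytes, 8 of the 10 genes had at least 50 UMIs. F3 and Plau were at least 2-fold lower in KD, where 7.03% of 7187 genes were, and F13a1 and Vcan at least 2-fold higher, where 7.64% were. The median log2 ratio of the 8 genes was -0.13, against 0.14 over all genes tested. F3 had 406 UMIs (223 CPM) in 776 Ctrl cells and 202 UMIs (27.8 CPM) in 2220 KD cells, a log2 ratio of -3.00 [-3.25, -2.76]. Thinned granulocytes with an F3 UMI were 18.6% in Ctrl and 3.83% in KD. Plau had 26 and 27 UMIs (14.3 and 3.72 CPM), against 11.6 and 5.46 CPM in T cells, so that it stood near the T cell level in both libraries. F13a1, with 4 and 98 UMIs, and Vcan, with 6 and 78 UMIs, also rested on few Ctrl UMIs, and F13a1 in KD granulocytes stood at 13.5 CPM, against 6.53 CPM in T cells. The 15 macrophage markers summed to 4502 CPM in Ctrl and 5044 CPM in KD granulocytes, against 344 and 396 CPM in T cells, and their part in these low levels was not tested.

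Plaur had 1244 CPM in Ctrl granulocytes and 1046 CPM in KD granulocytes, a log2 ratio of -0.25 [-0.32, -0.18], and 66.9% and 69.0% of thinned cells had a UMI. Thbs1 had 558 and 355 CPM, a log2 ratio of -0.65 [-0.76, -0.55]. F10 stood at 49.95 and 49.44 CPM, a log2 ratio of -0.01 [-0.35, 0.33], but with states in Ctrl proportions its log2 ratio was 1.15.

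The granulocyte states also differed in number. Interferon-responding granulocytes numbered 427 in Ctrl and 110 in KD, and mature granulocytes 18 and 596. Among classes of at least 50 cells, F3 was highest in interferon-responding granulocytes in both libraries, with no overlap with the next class. There it had 338 UMIs (388 CPM) in Ctrl and 47 UMIs (172 CPM) in KD, a log2 ratio of -1.18 [-1.65, -0.73]. In this state 4 genes had at least 50 UMIs. F3 was lower, where 3.30% of 2574 genes were at least 2-fold lower, and F10 was higher, with 62.0 and 183 CPM and a log2 ratio of 1.56 [0.97, 2.14], where 4.27% were. The summed counts of this state carried a shift of -0.24 on the log2 scale under TMM scaling, a trimmed mean over genes, and F3 and F10 kept their direction. In the sub-cluster led by Lypd6b (204 and 483 cells), F3 had 89.1 and 32.1 CPM, a log2 ratio of -1.47 [-2.11, -0.84]. In KD, immature and mature granulocytes held 15.3 and 21.0 CPM of F3. With the 3 states of at least 50 cells in both libraries in Ctrl proportions, the log2 ratio of F3 was -1.20 rather than -3.00, and that of Thbs1 was -0.69.

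**Figure D4:**
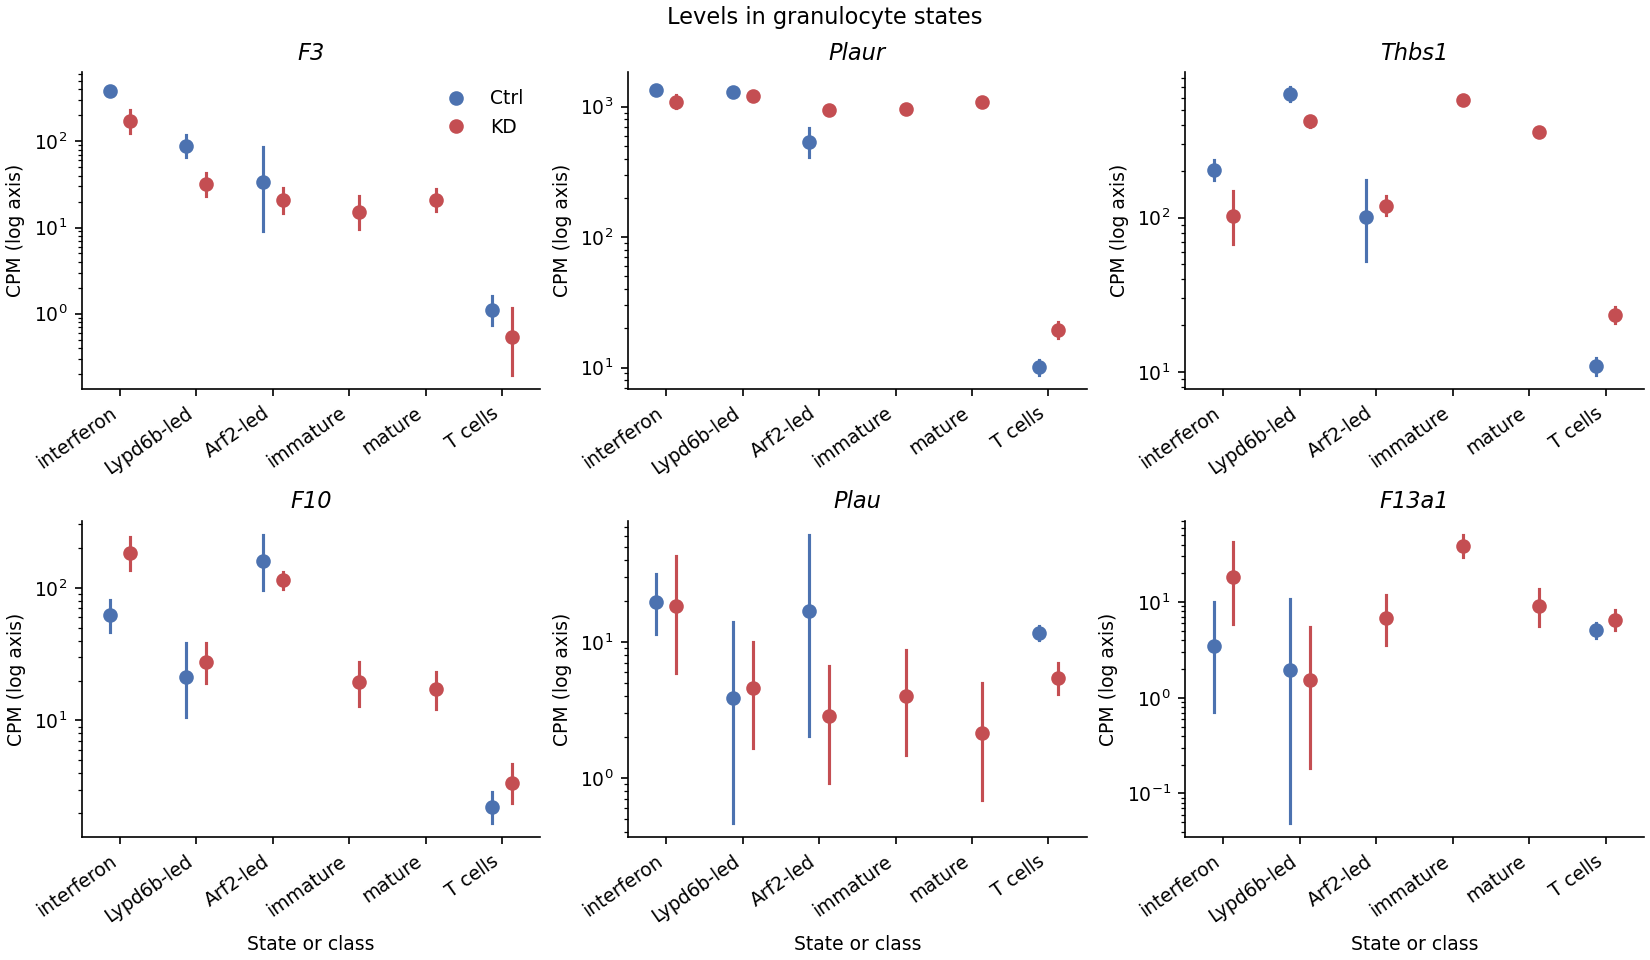
CPM (y axis, logarithmic) of 6 genes in granulocyte states and T cells (x axis) in Ctrl (blue) and KD (red), with 95% intervals for counting error; immature and mature granulocytes are drawn for KD only, as Ctrl had under 50 cells of each, and points at 0 are not drawn. Among the granulocyte points drawn, F3 was highest in interferon-responding granulocytes, at 388 CPM in Ctrl and 172 CPM in KD, and Plaur lay between 537 and 1344 CPM.

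Endothelial-like cells, which should not pass a CD45 selection, numbered 150 in Ctrl and 646 in KD. Of 8 members with at least 50 UMIs, 5 were at least 2-fold higher in KD (F13a1, Thbs1, Fn1, Vcan and Pf4), where 2.93% of 9054 genes were, and none was lower, where 2.33% were. These values rested on few UMIs and few cells. Thbs1 had 19 UMIs in 6 of the Ctrl cells and 300 UMIs in 63 of the KD cells, a log2 ratio of 2.08 [1.41, 2.83]. Vcan had 1 UMI in Ctrl and 109 UMIs in 23 KD cells, and Fn1 7 and 134 UMIs. The 15 macrophage markers summed to 3948 CPM in Ctrl and 4835 CPM in KD endothelial-like cells, against 344 and 396 CPM in T cells. The 10 platelet markers summed to 623 CPM in Ctrl and 552 CPM in KD, against 4.73 and 9.23 CPM in macrophages. Of these markers 6 were at 0 in Ctrl and 2 in KD. Clec1b, one of them, was among the leading genes of an endothelial-like cluster at resolution 1.0. The part of platelets in the Pf4 level of these cells was not tested. After removal of likely doublets, which left 109 Ctrl and 538 KD cells, 9.17% of the KD Vcan UMIs, 17.9% of the Fn1 UMIs, 19.7% of the Thbs1 UMIs and 75.5% of the Pf4 UMIs remained, and Pf4 alone was at least 2-fold higher. Without the cells that held UMIs of C1q genes, S100a8 or S100a9, 48 Ctrl and 98 KD cells remained, and Pf4 stood at 13.2 and 14.7 CPM. Thbs1 had 6 UMIs (19.8 CPM) and 43 UMIs (90.1 CPM) there, a log2 ratio of 2.19, under the minimum of 50 UMIs for a call. Most UMIs of F13a1, Thbs1, Fn1 and Vcan in the KD endothelial-like cells thus lay in cells of high doublet score. The log2 ratio was 0.28 for Plaur (62.7 and 75.9 CPM), 0.17 for F10 (12.2 and 13.7 CPM) and -0.23 for Plau (13.9 and 11.9 CPM). F7 was at 0 in the 150 Ctrl cells, which allows up to 2.61 CPM.

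Outside these classes, tumor-like or fibroblast-like cells held 225 CPM of Fn1 in Ctrl and 201 CPM in KD, and 87.2 and 52.1 CPM of Vcan. Plaur was also present in plasmacytoid dendritic cells, at 693 and 556 CPM, and in B cells, at 299 and 323 CPM. Kupffer cells, the resident liver macrophages, had 74.2 CPM of Pf4 in KD, and the 49 Ctrl Kupffer cells had 98.5 CPM. An unnamed cluster led by Gdf15 held 260 CPM of Pf4 in KD.

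A wider list of 59 genes of coagulation and matrix gave no common direction. In macrophages 36 of them had at least 50 UMIs. Of the anticoagulants, thrombomodulin (Thbd) was at least 2-fold higher in KD, with a log2 ratio of 1.10, and the protein C receptor (Procr) lower, at -1.16. The plasminogen activator inhibitor Serpinb2 was higher, at 1.87. The fibrinogen chain gene Fgb, with 55 and 16 UMIs, was lower, at -1.64, as were the hyaluronan-binding Tnfaip6, at -1.11, and transglutaminase 2 (Tgm2), at -1.25. The other 30 lay within 2-fold, among them the annexin pair S100a10, at 0.59, and Anxa2, at 0.79, which bind plasminogen, and the hyaluronan receptor Cd44, at 0.65. The list had a median of 0.01.

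In granulocytes 17 of the wider list were measured, with the fibronectin receptor chain Itga5 higher, at 1.56, and the plasminogen receptor Plgrkt lower, at -2.09, as was Tgm2, at -1.60. The median was -0.27. In endothelial-like cells 31 were measured, with Itgb3 (1.09), Itgam (1.75) and Cd44 (35.7 CPM in Ctrl and 101 CPM in KD) higher and F5 (-2.09), Serpine2 (-3.19), Adamts4 (-1.10) and Adamts9 (-1.29) lower. Itgam is a myeloid integrin chain, and the myeloid markers in these cells are given above. The median there was -0.30.

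Genes with a like pattern were sought over 30 points, 15 classes in each of the 2 libraries, among 13125 genes, as Pearson's r of log2(CPM + 1). The points share libraries and depth, so r is a description. Pf4 was most like Arg1 (r = 0.92), Lpl (r = 0.86) and Apoe (r = 0.85). Fn1 was most like Serpinb8 (r = 0.93), Mcub (r = 0.90) and Lrp1 (r = 0.89), and Vcan was most like Serpinb8 (r = 0.86), Fn1 (r = 0.86) and Ptgir (r = 0.83). F3 was most like Pde1a (r = 0.87), Cped1 (r = 0.87) and the interferon-induced Rsad2 (r = 0.86). F7 was most like Gm57441 (r = 0.84), Lilra5 (r = 0.84) and Trem2 (r = 0.83), and F10 most like Gm21188 (r = 0.92), Gm36161 (r = 0.91) and Gpr141 (r = 0.91). F13a1 was most like Arhgef37 (r = 0.87), Gm56663 (r = 0.87) and Ms4a8a (r = 0.86), and Thbs1 most like Pla2g7 (r = 0.87), Pgd (r = 0.86) and Hacd4 (r = 0.86). Plau was most like Axl (r = 0.89), Ccl7 (r = 0.88) and Cxcl14 (r = 0.85), whereas Plaur was most like Tpd52 (r = 0.92), Pfkfb4 (r = 0.88) and Zfp36 (r = 0.85). Among the 10 genes themselves, r was highest for Fn1 and Vcan (r = 0.86) and for F13a1 and Fn1 (r = 0.84), and lowest for Plau and Plaur (r = -0.03) and for F13a1 and F3 (r = -0.01).

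**Figure D5:**
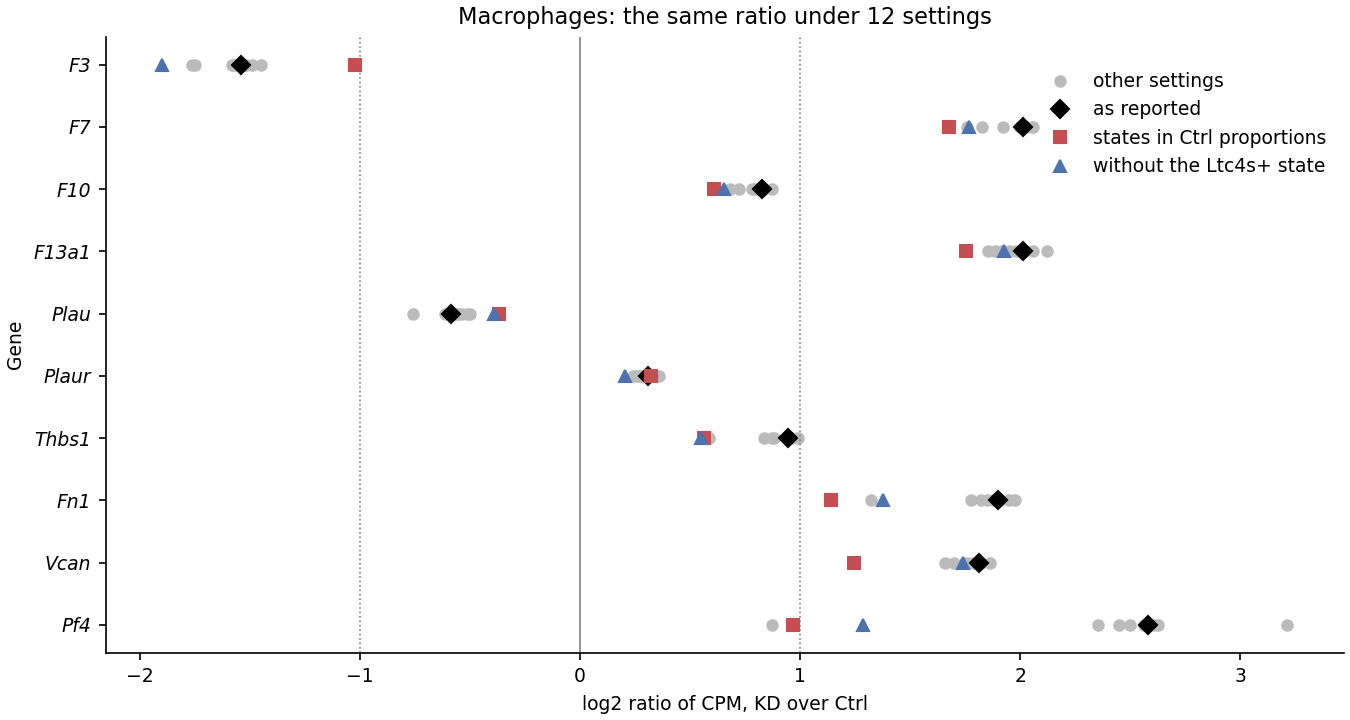
Log2 ratio of CPM in macrophages, KD over Ctrl (x axis), for the 10 genes (y axis) under 12 settings of the processing, with dotted lines at 2-fold. Black diamonds are the values reported, red squares the values with states in Ctrl proportions, blue triangles those without the Ltc4s+ state and grey circles the other settings. Every gene kept its side of 0, and Pf4 moved most, from 0.87 to 3.21.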

How the data were processed

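Liver metastases of 3 mice per group were pooled, CD45+ cells were selected and 1 droplet 3' library per group was sequenced. The deposited values were UMI counts per gene and cell barcode, made by the authors with Cell Ranger 7.1.0 and not normalized. Per the submitters' processing notes, the build was GRCm39 and Seurat 5.1.0 and R 4.4.1 were used. Every deposited barcode held at least 500 UMIs. Groups were taken from the hairpin in the labels.

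The 10 genes, the gene lists and the marker lists were chosen with earlier results of these data known. Of 21359 cells, 19999 with 200 to 6000 genes, no more than 30000 UMIs and a mitochondrial share of up to 10% were kept. Doublets were treated by these limits alone. As an alternative, the 771 Ctrl and 830 KD cells of highest Scrublet score (scanpy 1.11.5) were left out. The automatic threshold marked 3.30% and 4.36%. Seurat 5.3.0 (R 4.3.3) was used to log-normalize and cluster the cells with 2000 variable genes, 20 principal components and resolution 0.5, and macrophages and granulocytes were re-clustered. The 10 genes and the wider list were left out of the variable genes. A single OpenBLAS kernel was used throughout, since the clusters changed with it. A marker counted at a log2 fold of at least 1 (0.5 within a lineage) in at least 10% of cells. At least 3 such markers were required for a name, and it was refused where another class had more of the top 10 genes. Parts of this naming rule were made with the clusters in view, and a difference from the study may come from these rebuilt names.

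UMIs were summed per class and divided by the class total (CPM), with exact Poisson intervals. Log2 ratios had exact conditional binomial intervals, and the confidence level was 95%. UMIs come from molecules, but the intervals cover counting error only. A gene was compared where it had at least 50 UMIs over both libraries in the class, and was called at 2-fold. A gene at 0 was given a limit of 3 UMIs. Shares of cells were taken in cells thinned to 1500 UMIs each, and 9069 Ctrl and 9592 KD cells were deep enough. The calculation of the ratios was checked on simulated Poisson counts. These had no spread between cells or mice, so the check covers the calculation and not the error between libraries. Named genes were all 10 members, genes of the wider list past 2-fold or among the 3 of highest CPM in a sub-list, the 3 genes of most like pattern per member, and platelet and hepatocyte markers. Genes that lead clusters were picked with their values known. Other tools were Python 3.11.15, numpy 2.4.6, scipy 1.17.1, pandas 2.3.3 and edgeR 4.0.16, the last for TMM scaling alone.

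Alternatives planned were a stricter filter on cells (500 genes or more, up to 5% mitochondrial), removal of likely doublets, resolution 1.0, classes from single cells, the members kept among the variable genes, TMM scaling, thinned counts, subtraction of the T cell level, other UMI minimums and leaving out states mostly from 1 library. States in Ctrl proportions, leaving out unnamed macrophage sub-clusters and leaving out endothelial-like cells with C1q or S100a8/9 UMIs were added after seeing the data.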

Additional observations from a re-analysis of the deposited data

Results flagged for a closer look

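Thbs1 was higher in KD in macrophages (log2 ratio 0.94) and lower in KD in granulocytes (-0.65), a difference of -1.60 between the classes. Thbs1 was also higher in KD in endothelial-like cells (2.08), which gave a difference of 2.73 from granulocytes, on 19 Ctrl UMIs in the endothelial-like cells. Plaur was higher in KD in macrophages (0.31) and lower in granulocytes (-0.25), a difference of -0.56. Each class had 1 library per group, so these differences between classes were not tested. In Thbs1 the granulocyte value was -0.69 with states in Ctrl proportions, which left out immature and mature granulocytes, and the macrophage value 0.56.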

How the results depend on the processing

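With 1 library per group no replicate spread is known, and a difference between the pools of mice and one between the hairpins cannot be told apart. No paired analysis was possible because each group had 1 library. In macrophages all 110 values of the 10 genes over 11 alternatives kept their side of 0, and 64 of the 66 values of genes past 2-fold stayed past it. The exceptions were Pf4, at 0.97 with states in Ctrl proportions and at 0.87 under the stricter cell filter. Under that filter 568 of the 585 KD Ltc4s+ cells passed, but 82 were placed among macrophages, and a cluster of 594 KD cells was then named Kupffer cells. F3 ranged from -1.90 to -1.02, F13a1 from 1.75 to 2.12, Fn1 from 1.14 to 1.98 and Vcan from 1.24 to 1.86.

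Counts of genes past 2-fold were less stable in the other classes. In granulocytes the 2 higher genes became 1 without likely doublets, 4 with classes from single cells, and 0 with thinned counts and at a minimum of 200 UMIs. The 2 lower genes became 1 without doublets, with thinned counts, at 200 UMIs and in Ctrl proportions, and F3 remained in each. In endothelial-like cells the 5 higher genes became 1 without doublets, 3 with classes from single cells, 1 with thinned counts, 1 at 200 UMIs and 0 without cells with C1q or S100a8/9 UMIs, and 1 gene (F3) was lower with no UMI minimum. Fewer UMIs or cells entered most of these settings. Directions turned for Vcan in C1q-high macrophages (-0.29 thinned and -0.0051 with the T cell level subtracted), Fn1 in inflammatory macrophages (-0.10 thinned), Fn1 in granulocytes (-0.37 with the T cell level subtracted), for F10 in endothelial-like cells (-1.20 thinned), Plau there (1.39 thinned and 1.46 with the T cell level subtracted) and Plaur there (-0.37 thinned and -0.55 without cells with C1q or S100a8/9 UMIs). F10 in granulocytes and Plau in C1q-high macrophages, both near 0, also changed sign, F10 up to 1.15 in Ctrl proportions. In inflammatory macrophages 14 of 18 values of called genes stayed past 2-fold, and in C1q-high macrophages 39 of 42, with Thbs1 at 0.94 and Fn1 at 0.98 under the stricter filter and F3 at -0.83 at resolution 1.0. The cause was not tested.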
